A study of Mus musculus with 30 samples.

Results

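The genes *Msx1*, *Msx2*, *Id1*, *Id2*, *Id3*, *Id4*, *Smad6* and *Smad7* were followed here as transcriptional responders to bone morphogenetic protein (BMP) signaling. They were chosen by name, and they are 8 of the 50833 genes in the count table and of the 55052 genes in the table of length-scaled values. All 8 passed the filter on low counts in every comparison.

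BMP ligands bind receptor kinases that phosphorylate SMAD proteins, which enter the nucleus and change transcription. *Msx1* and *Msx2* encode homeodomain transcription factors of the limb bud mesenchyme and ridge, the Id genes encode helix-loop-helix proteins that lack a DNA-binding region and hold other helix-loop-helix factors off DNA, and *Smad6* and *Smad7* encode inhibitory SMADs that dampen the signal from within. All of them are widely used as readouts of BMP activity, and in the limb bud BMP signaling meets WNT, FGF and SHH signaling in the control of outgrowth and digit formation.

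Wild-type Swiss Albino females were injected intraperitoneally once, at embryonic day E10.5, with Wnt-C59 (C59), an inhibitor of the enzyme porcupine that WNT ligands need for their secretion. Control females received the solvent DMSO in PBS, so that both groups were exposed to DMSO. By the paper's methods the vehicle of C59 also held methylcellulose and the detergent Tween, and its stated share of DMSO differed. Effects of C59 and of these differences in vehicle cannot be told apart here. Forelimb buds were collected after 1, 6, 12, 18 and 24 h, and polyA RNA of 1 pair of buds made up a library, with 3 libraries for each treatment and time, 10 groups and 30 libraries in all. As the mother was injected and whole buds were taken, every value is an average over ectoderm, mesenchyme, vessels, blood and immigrating muscle progenitors of the bud.

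The libraries held between 18188636 and 38974885 counts, and no replicate was a copy of another, since the counts of each of the 30 pairs within a group differed beyond counting error (chi-square over its degrees of freedom, 3.31 to 42.2). In 5 groups 1 library stood apart from the other two in this ratio, at depths within the range of the rest: DMSO 1 h replicate 1 (20.8 and 22.8, where the other two differed by 5.36), DMSO 6 h replicate 1 (41.7 and 35.4 against 5.74), DMSO 18 h replicate 1 (35.8 and 28.8 against 3.94), C59 18 h replicate 3 (38.9 and 32.9 against 4.10) and C59 24 h replicate 2 (42.2 and 31.6 against 11.7). Without DMSO 1 h replicate 1 or DMSO 6 h replicate 1 no member changed its side of the threshold, and for the other 3 libraries the values without them are given beside the members they changed. The spread of replicates estimated by edgeR was widest at 18 h, with a biological coefficient of variation of 12.5%, against 5.41% to 7.52% for the remaining times. Embryos of both sexes were used. At 6 h all 3 C59 libraries and 0 of 3 DMSO libraries held Y-linked transcripts above 1 FPKM in sum, so embryo sex and treatment cannot be told apart at that time, whereas both groups held both kinds of library at 12 and 18 h. At 24 h such transcripts were found in 3 C59 and 2 DMSO libraries, and at 1 h in 3 and 2. The 2 DMSO libraries of 1 h were intermediate, with sums of 7.66 and 9.03 FPKM. At that time DMSO replicate 3 had 0.0469 FPKM and the C59 libraries had 21.2 to 38.2 FPKM. The reason for the intermediate sums was not tested. *Axin2*, a feedback target of canonical WNT signaling, served as a check of the inhibitor. After C59 its CPM (counts scaled to library size with TMM factors) was 87.5% of DMSO at 1 h, 25.7% at 6 h and 36.5% at 12 h. It reached 88.6% at 18 h and 93.8% at 24 h.

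Positions are given on the mouse genome (GRCm38, GENCODE M21). *Msx1* spans chr5:37820485-37824583 on the minus strand and *Msx2* spans chr13:53466884-53473074 on the minus strand, each with 2 exons in its longest transcript. *Id1* spans chr2:152736251-152737410 on the plus strand, *Id2* spans chr12:25093799-25097140 on the minus strand, *Id3* spans chr4:136143497-136145755 on the plus strand, and *Id4* spans chr13:48261228-48266026 on the plus strand. *Smad6* spans chr9:63953076-64022059 on the minus strand. *Id4* was the only member that shared exonic sequence with opposite-strand genes (*A330033J07Rik* and *Gm49291*), whose counts did not exceed 4 in any library, against a median of 143.5 for *Id4*.

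Start regions of 3 members are printed to set the gene with the strongest response to C59 (*Msx1*) beside the member that passed higher at 12 h (*Id4*) and a member that passed at no time (*Smad6*). Each is the 250 bases upstream of the RefSeq start site (GRCm38.p6), 5′ to 3′ on the gene's own strand, in a stretch that overlaps no GENCODE exon. The stretches are chr5:37824586-37824835 (minus strand) for *Msx1*, chr13:48260866-48261115 (plus strand) for *Id4* and chr9:64022060-64022309 (minus strand) for *Smad6*, and capitals mark a match to a searched motif.
Msx1: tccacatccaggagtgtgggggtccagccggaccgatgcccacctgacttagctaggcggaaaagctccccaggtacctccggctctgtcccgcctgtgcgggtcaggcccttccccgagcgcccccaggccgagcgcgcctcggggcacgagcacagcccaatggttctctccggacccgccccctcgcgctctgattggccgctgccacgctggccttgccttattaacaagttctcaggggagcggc
Id4: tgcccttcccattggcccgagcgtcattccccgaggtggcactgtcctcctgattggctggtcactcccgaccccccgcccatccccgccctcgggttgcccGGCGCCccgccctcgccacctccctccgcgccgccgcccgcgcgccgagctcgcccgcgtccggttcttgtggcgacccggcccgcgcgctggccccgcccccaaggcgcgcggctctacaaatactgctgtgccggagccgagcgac
Smad6: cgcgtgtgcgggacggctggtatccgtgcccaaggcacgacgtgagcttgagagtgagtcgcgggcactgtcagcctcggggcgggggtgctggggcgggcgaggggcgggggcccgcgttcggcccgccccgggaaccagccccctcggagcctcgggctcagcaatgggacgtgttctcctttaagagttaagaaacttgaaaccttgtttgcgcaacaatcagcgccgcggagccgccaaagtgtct
Windows from 250 bases before to 50 bases after the start site, from the same RefSeq table, covered 6 of the 8 members and 32851 starts of 27025 genes. They were searched on both strands for CTTTGA (core of TCF/LEF, the DNA-binding partners of β-catenin), GGCGCC (a GC-rich SMAD1/5 element), CAGAC (SMAD box) and TAATTG (homeodomain core of MSX). None of these letters occurred in the windows of *Msx1*, *Msx2* or *Smad6*. The *Id2* window held GGCGCC, the *Id3* window held CAGAC on either strand, and the *Id4* window held GGCGCC and, beyond the printed stretch, CTTTGA. Over all windows the shares with a match were 16.0% for CTTTGA, 11.9% for GGCGCC, 49.6% for CAGAC and 8.0% for TAATTG. A match describes letters and not a binding site, and distal regulatory regions were not searched.

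In DMSO limb buds the members kept the same order of length-scaled level at all 5 times. On the FPKM scale (fragments scaled to transcript length and library size, which allows genes to be compared), *Id3* was highest, followed by *Id1*, *Id2*, *Msx1*, *Msx2*, *Smad6*, *Smad7* and *Id4*. At 12 h the DMSO level of *Id3* was 94.4 FPKM ± 5.63 (SD, n = 3), that of *Msx1* was 47.4 FPKM ± 3.90 and that of *Id4* was 1.42 FPKM ± 0.161. Neighbours in this order did not overlap between libraries at 12 and 24 h, while *Id3* and *Id1* overlapped at 1, 6 and 18 h, and *Id1*, *Id2* and *Msx1* overlapped with their neighbours at 1 h. Inhibitory SMAD transcripts were thus present in every library, at 19.7 FPKM ± 0.201 for *Smad6* and *Smad7* together at 12 h in DMSO.

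The levels also moved with age in controls. Between 1 and 24 h of DMSO, 5 of the 8 members passed an adjusted p of 0.05 in edgeR's quasi-likelihood test, 1 lower and 4 higher, where 27.6% of all tested genes passed lower and 28.9% higher. *Msx1* CPM was 188, 173 and 167 in the DMSO libraries at 1 h and 108, 103 and 107 at 24 h. It fell by 0.73 on the log2 scale (SE 0.06, adjusted p = 2.56e-08), and the step from 6 to 12 h passed on its own, with a log2 change of -0.41, which 1.47% of all genes did in that direction. *Id4* went the other way, from 4.42, 3.38 and 4.55 CPM at 1 h to 14.9, 11.2 and 12.8 CPM at 24 h. Its log2 change was 1.64 (SE 0.15, adjusted p = 8.27e-08), the only one of the 8 beyond 1, a size and adjusted p that 10.6% of all genes reached upward. *Id3* (0.59), *Id1* (0.46) and *Smad6* (0.23) rose by less on the log2 scale. *Id2* differed by -0.13 and *Msx2* by -0.14 between 1 and 24 h of DMSO and neither passed. *Id2* was not flat in between, as its DMSO level fell from 6 to 12 h (log2 change -0.28, adjusted p = 0.023). It then rose from 12 to 18 h (0.25, adjusted p = 0.02) and fell from 18 to 24 h (-0.24, adjusted p = 0.0285). *Smad7* differed by 0.14 (adjusted p = 0.0703), and passed without DMSO 1 h replicate 2, at 0.19 (adjusted p = 0.0226). With all libraries kept it also passed in edgeR with upper-quartile factors (0.16, adjusted p = 0.0396) and with a filter at a mean of 1 CPM (0.15, adjusted p = 0.0438). In limma on log2(FPKM + 1) and log2(FPKM + 0.1) it passed as well (adjusted p = 0.0289 and 0.0264).

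**Figure D1:**
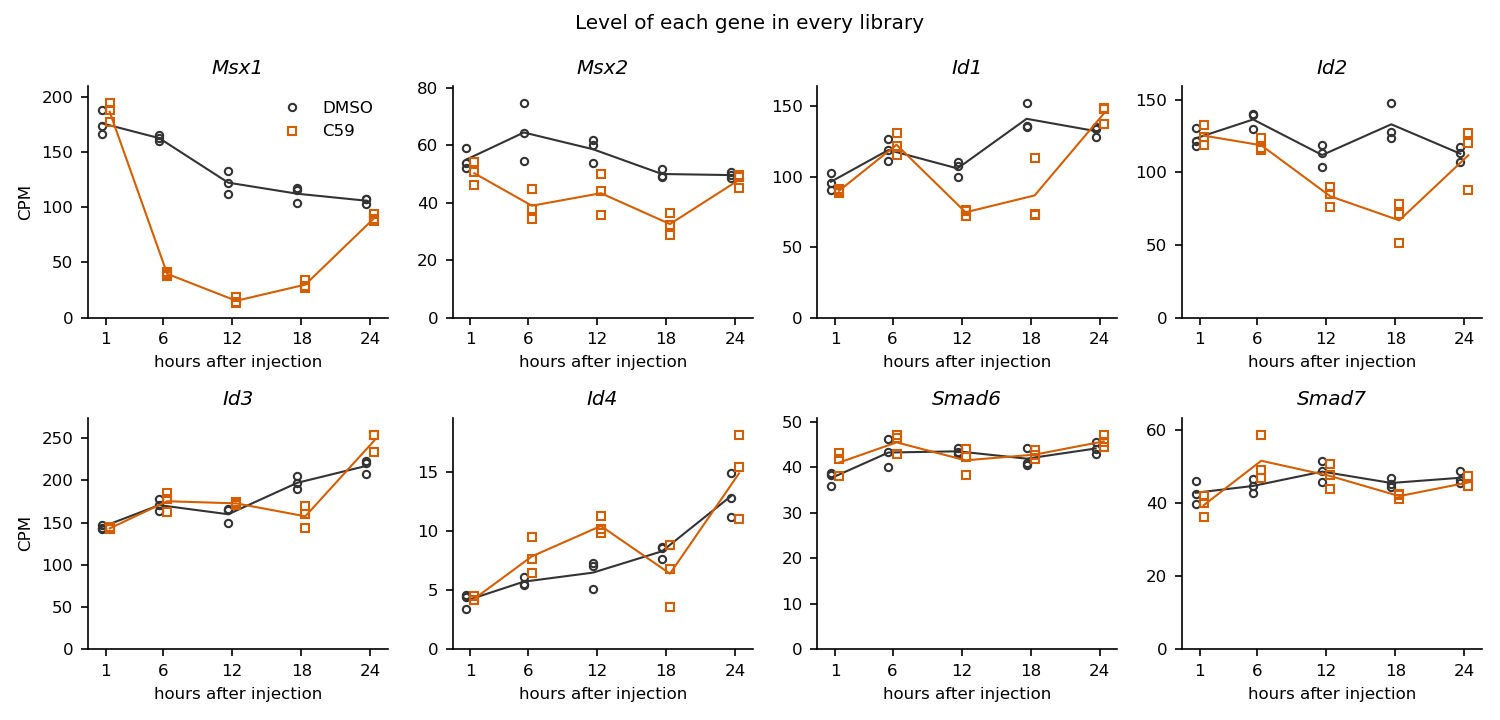
CPM of each of the 8 genes (y axes from 0) against hours after injection, with DMSO libraries as dark circles, C59 libraries as orange squares and lines through the means of 3 libraries. *Msx1* separates widely at 6, 12 and 18 h and comes near the control level at 24 h, *Msx2*, *Id1* and *Id2* separate by less, and *Smad6* and *Smad7* stay close to their controls.

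In the first hour after injection no member passed between C59 and DMSO. Of the 8, 0 passed in edgeR or DESeq2 and 0 had an unadjusted p below 0.05 in edgeR, where 2.75% of all genes passed. Their log2 fold changes ran from -0.13 (*Msx2*) to 0.13 (*Smad6*). *Axin2*, the check of the inhibitor, already passed lower in edgeR at 1 h (log2 fold change -0.19, adjusted p = 0.0282).

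*Msx1* gave the largest response of the 8 genes at 6, 12 and 18 h. At 6 h its CPM was 165, 163 and 159.8 in DMSO and 41.7, 37.7 and 39.4 in C59. Every C59 library thus lay far below every control, at 24.4% of the DMSO mean, with a log2 fold change of -2.04 (SE 0.05, adjusted p = 6.66e-12). At 12 h *Msx1* CPM was 122, 112 and 133 in DMSO and 13.7, 13.3 and 18.6 in C59. This was the deepest point, at 12.4% of the DMSO mean, and again without overlap (log2 fold change -3.01, SE 0.11, adjusted p = 1.2e-07). At 18 h *Msx1* CPM was 116, 104 and 117 in DMSO and 34.2, 28.4 and 27.0 in C59. The C59 libraries were again all lower, with a log2 fold change of -1.89 (SE 0.12, adjusted p = 0.000158). At 24 h *Msx1* CPM was 108, 103 and 107 in DMSO and 89.3, 93.7 and 87.8 in C59. The groups still did not overlap, but the C59 mean had come back to 85.2% of DMSO, a log2 fold change of -0.22 (SE 0.06, adjusted p = 0.0382). That small difference did not pass without DMSO 24 h replicate 1, 2 or 3 or without C59 24 h replicate 2 or 3 (adjusted p from 0.05 to 0.181, log2 fold change from -0.25 to -0.20). *Msx1* belongs to a panel of BMP genes that the study drew up from these samples, so its direction is not independent evidence. In bulk tissue, fewer cells that express a gene and less RNA per cell cannot be told apart.

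*Msx2*, which encodes the close relative of MSX1, fell by much less. At 6 h its CPM was 64.1, 54.5 and 74.6 in DMSO and 37.8, 34.4 and 44.6 in C59. All C59 libraries were lower, with a log2 fold change of -0.73 (SE 0.11, adjusted p = 0.000304). At 12 h *Msx2* CPM was 60.1, 62.0 and 53.7 in DMSO and 50.1, 43.9 and 35.9 in C59, a log2 fold change of -0.44 (SE 0.11, adjusted p = 0.00588). At 18 h it was 49.3, 49.0 and 51.6 in DMSO and 32.2, 36.6 and 28.9 in C59. The groups were apart at both times, and the log2 fold change at 18 h was -0.60 (SE 0.11, adjusted p = 0.0143). Without DMSO 18 h replicate 1, 2 or 3, or with embryo sex as a term (a setting added after seeing the data), *Msx2* did not pass at 18 h, with adjusted p of 0.0615, 0.0586, 0.09 and 0.0552. At 24 h the groups overlapped (log2 fold change -0.04, adjusted p = 0.768).

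The unequal fall of the pair changed its makeup. In FPKM, *Msx1* was 2.65 times *Msx2* in DMSO at 12 h (SD 0.426) and 0.467 times in C59 (SD 0.166), so that *Msx2* became the more abundant of the pair in C59. The share of *Msx1* in the summed FPKM of the pair was 72.3% ± 3.14 (SD, n = 3) in DMSO and 31.3% ± 7.32 in C59 at 12 h, and at 6 h it was 76.1% ± 3.07 and 56.2% ± 2.93. The libraries of the treatments did not overlap in this ratio at 6, 12, 18 or 24 h. By 24 h the ratio was 2.69 (SD 0.0969) in DMSO and 2.38 (SD 0.104) in C59. In the order of FPKM levels *Msx1* moved from the fourth place in DMSO to the seventh in C59 at 12 h, where at 6.32 FPKM ± 1.18 it lay below *Smad7*, at 8.51 FPKM ± 0.709, with no overlap between libraries.

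**Figure D2:**
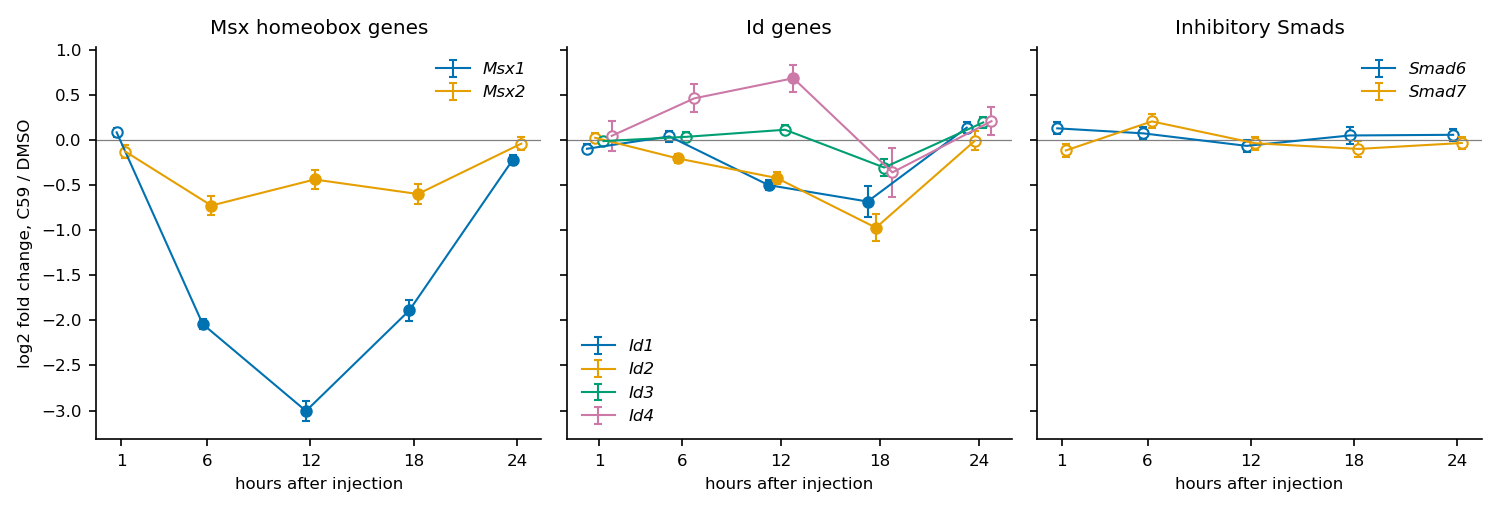
Log2 fold change of C59 over DMSO (y axis) against hours after injection, with 1 panel for each family and bars of 1 SE from the edgeR fit on 6 libraries per time; filled points passed an adjusted p of 0.05 and open points did not. *Msx1* reaches -3.01 at 12 h, *Id1* and *Id2* reach their lowest log2 fold changes against DMSO of the same time at 18 h, *Id4* lies above 0 at 12 h, and the inhibitory Smads stay within 0.21 of 0.

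*Id1*, a general readout of BMP activity, was close to its controls at 6 h and lower at 12 and 18 h. At 6 h *Id1* CPM was 127, 111 and 119 in DMSO and 131, 122 and 115 in C59, with full overlap (log2 fold change 0.04, SE 0.06, adjusted p = 0.705). At 12 h it was 110.1, 108 and 99.95 in DMSO and 72.1, 76.2 and 76.0 in C59. All C59 libraries lay below all controls, with a log2 fold change of -0.50 (SE 0.05, adjusted p = 2.52e-05). At 18 h *Id1* CPM was 152, 136 and 135 in DMSO and 73.7, 73.0 and 113 in C59. C59 replicate 3 thus stood nearer to the controls than the other C59 libraries, and the log2 fold change was -0.68 (SE 0.17, adjusted p = 0.0441). Without C59 18 h replicate 3 the log2 fold change was -0.93 (adjusted p = 0.000324). Without any one of the other 5 libraries of 18 h, DMSO replicates 1, 2 and 3 and C59 replicates 1 and 2, *Id1* did not pass (adjusted p from 0.099 to 0.156, log2 fold change from -0.71 to -0.57), nor with embryo sex as a term (adjusted p = 0.101) or upper-quartile factors (0.0655). It also did not pass in edgeR on all genes of the table (adjusted p = 0.0541). In limma on log2(FPKM + 1) and log2(FPKM + 0.1) its adjusted p was 0.0552 and 0.0559. At 24 h *Id1* CPM was 128, 134 and 135 in DMSO and 149, 148 and 137 in C59, slightly higher without overlap but without passing (log2 fold change 0.13, adjusted p = 0.195).

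*Id2*, which like the other Id genes encodes an antagonist of helix-loop-helix factors, was lower at 6, 12 and 18 h. At 6 h its CPM was 139.9, 129.9 and 139 in DMSO and 123, 117 and 116 in C59, a log2 fold change of -0.21 (SE 0.05, adjusted p = 0.00998). Without C59 6 h replicate 2 or 3 this small difference did not pass (adjusted p = 0.0516 and 0.0594), nor where all 30 libraries shared the spread estimate (adjusted p = 0.276). It did not pass in limma on log2(FPKM + 1) or log2(FPKM + 0.1) either (adjusted p = 0.0684 and 0.0694). At 12 h *Id2* CPM was 119, 113 and 103 in DMSO and between 75.8 and 90 in C59 (log2 fold change -0.42, SE 0.07, adjusted p = 0.000662). At 18 h it was 148, 128 and 124 in DMSO and 71.4, 77.8 and 51.5 in C59. At 50.3% of the DMSO mean this was the deepest point of *Id2*, a log2 fold change of -0.97 (SE 0.15, adjusted p = 0.00804). Here C59 replicate 3 was the lowest library, whereas it was the highest for *Id1*, and without it the log2 fold change of *Id2* was -0.82 (adjusted p = 0.000973). At 24 h *Id2* CPM was 114, 118 and 107 in DMSO and 87.8, 127 and 120.4 in C59, with overlap and a log2 fold change of -0.01 (adjusted p = 0.972).

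*Id3*, the member with the highest FPKM, passed at no time against DMSO in edgeR with all libraries of a time, but at 12, 18 and 24 h its call depended on the setting. At 12 h *Id3* CPM was 165, 166 and 149 in DMSO and 174, 171 and 173 in C59 (log2 fold change 0.11, SE 0.05, adjusted p = 0.074). At 18 h it was 205, 197 and 189 in DMSO and 143, 159.7 and 169 in C59, and at 24 h it was 208, 220.3 and 223 in DMSO and 254, 234 and 254 in C59. The groups lay apart at all 3 times, above the controls at 12 and 24 h and below them at 18 h, with log2 fold changes of -0.31 (adjusted p = 0.0874) at 18 h and 0.19 (adjusted p = 0.072) at 24 h. *Id3* passed at 18 h without C59 18 h replicate 3 (log2 fold change -0.37, adjusted p = 0.0111) and at 24 h without C59 24 h replicate 2 (0.24, adjusted p = 0.0488). It also passed at 12 h with upper-quartile factors (0.20, adjusted p = 0.00765) and in limma on log2(FPKM + 1) and log2(FPKM + 0.1) (adjusted p = 0.0122 and 0.0126). In DESeq2, the tool of the study, *Id3* passed lower at 18 h (-0.31, adjusted p = 0.046) and higher at 24 h (0.19, adjusted p = 0.0479), and with all 30 libraries sharing the spread it passed lower at 18 h (-0.32, adjusted p = 0.000158).

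*Id4* was higher in C59 at 12 h, where it was the only member to pass upward in edgeR with TMM factors. Its counts were low, between 69 and 399 per library, and its levels are the least precise of the 8. At 12 h *Id4* CPM was 7.04, 7.35 and 5.09 in DMSO and 11.3, 9.88 and 10.2 in C59, without overlap (log2 fold change 0.68, SE 0.15, adjusted p = 0.00341). At 6 h it was 5.48, 6.15 and 5.55 in DMSO and 9.5, 6.47 and 7.66 in C59. All C59 libraries were higher there too, but the log2 fold change of 0.46 did not pass (SE 0.15, adjusted p = 0.0514), and it did without DMSO 6 h replicate 2 (0.51, adjusted p = 0.0474) or C59 6 h replicate 2 (0.58, adjusted p = 0.0258). With all libraries kept, *Id4* also passed at 6 h in edgeR with upper-quartile factors (0.48, adjusted p = 0.0407) or without the filter on low counts (0.46, adjusted p = 0.0332). At 18 h the C59 libraries spread from 3.55 to 8.84 CPM and overlapped the controls, with C59 replicate 3 again apart (log2 fold change -0.36 with it and -0.08 without it).

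In summed FPKM, which carries no TMM factors, the 4 Id genes were lower in C59 without overlap at 18 h only, of the 5 times. Their summed FPKM was 318 ± 31.2 (SD, n = 3) in DMSO and 213 ± 24.9 in C59 at 18 h, and 316 ± 9.02 in DMSO and 351 ± 9.37 in C59 at 24 h. At 12 h the sums overlapped narrowly, at 246 ± 14.1 FPKM in DMSO (lowest 230) and 226 ± 4.91 FPKM in C59 (highest 231). This overlap belongs to the FPKM scale, and sums of CPM were not compared. At 12 h C59 was at 70.6% of DMSO in CPM and 75.0% in FPKM for *Id1*. For *Id2* it was at 74.6% and 78.8%. The share of *Id3* in the summed FPKM at 12 h was 38.3% ± 0.532 in DMSO and 47.7% ± 1.00 in C59. *Id1* made up 34.2% ± 0.384 in DMSO and 28.0% ± 1.04 in C59 at 12 h, and *Id4* 0.576% in DMSO and 1.07% in C59.

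**Figure D3:**
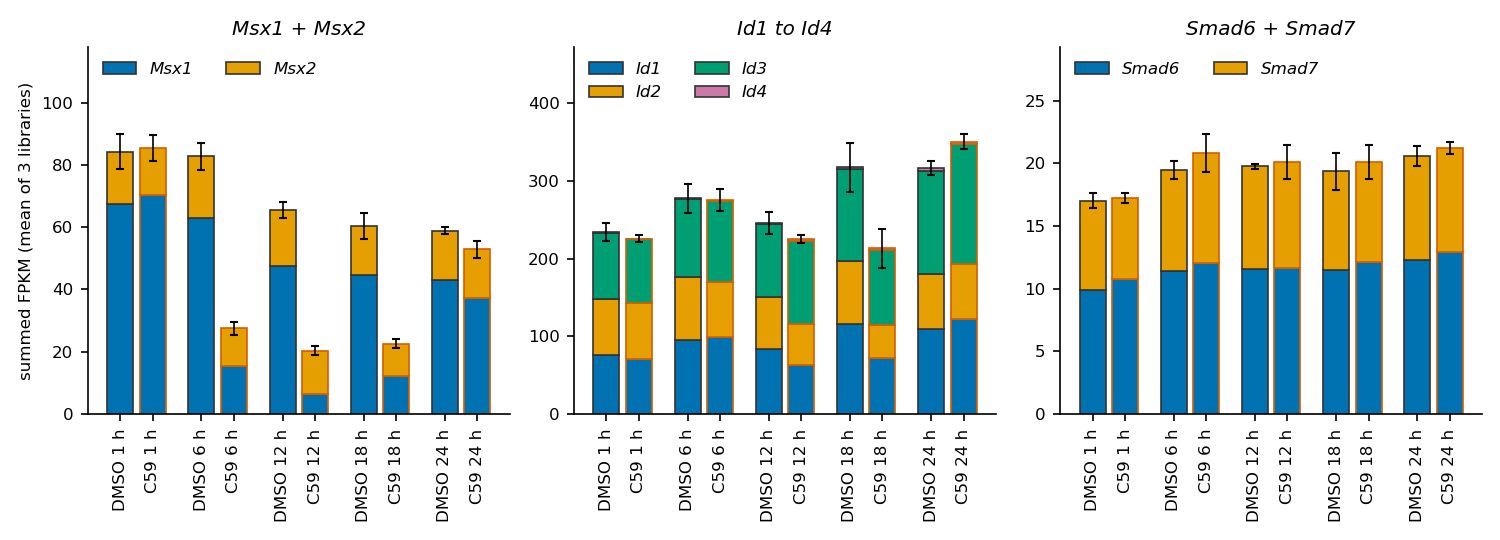
Summed FPKM of each family in each group (bars from 0, mean of 3 libraries, segments for the single genes, whiskers 1 SD of the sum), with C59 bars outlined in orange. The *Msx* sum is carried mostly by *Msx1* in DMSO and mostly by *Msx2* in C59 at 12 h, the Id sum is lower in C59 at 18 h (213 against 318 FPKM), and the *Smad6* and *Smad7* sum stays between 17.0 and 21.2 FPKM.

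The inhibitory SMADs passed at no time. *Smad6*, which acts mainly on the BMP branch, had 43.5, 42.9 and 44.3 CPM in DMSO and 42.3, 44.0 and 38.4 CPM in C59 at 12 h. In CPM the groups overlapped at all 5 times, while in FPKM C59 lay higher without overlap at 1 h (109% of DMSO). The log2 fold changes of *Smad6* ran from -0.07 (12 h) to 0.13 (1 h). At 12 h the interval of 2 SE either side ran from -0.20 to 0.07. *Smad7*, which acts on the BMP and TGFβ branches, had 51.5, 48.8 and 45.8 CPM in DMSO and 50.7, 47.7 and 44.0 CPM in C59 at 12 h. Its libraries overlapped at that time, with a log2 fold change of -0.04 and an interval from -0.18 to 0.10. The largest difference of *Smad7* was at 6 h, where C59 libraries at 58.8, 49.2 and 47.0 CPM lay above DMSO libraries at 42.8, 46.7 and 44.7 CPM. This log2 fold change of 0.20 (SE 0.08) had an adjusted p of 0.081, and of 0.0484 without C59 6 h replicate 3, where it was 0.28. At 18 h *Smad7* was lower without overlap, with 46.9, 44.5 and 45.3 CPM in DMSO and 42.4, 42.2 and 41.3 CPM in C59, but without passing (log2 fold change -0.10, SE 0.09, adjusted p = 0.514). Both separations of *Smad7* belong to the CPM scale. In FPKM its groups overlapped at 6 h (C59 at 110% of DMSO) and at 18 h (101%). An adjusted p above the threshold does not show that these genes were the same in both groups, and the intervals give the sizes that the data allow.

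Counted over the family, 3 of the 8 members passed at 6 h, all of them lower, where 19.6% of all genes passed and 11.4% were lower. At 12 h 4 passed lower and 1 higher, where 47.5% of all genes passed, 25.5% lower and 22% higher. At 18 h 4 passed, all lower, where 7.08% of all genes passed and 3.62% were lower. At 24 h 1 passed, lower, where 6.44% of all genes passed and 3.56% were lower. With a log2 fold change beyond 1 as well, *Msx1* was the only member at 6, 12 and 18 h, each time lower, against 0.74%, 1.43% and 0.738% of all genes in that direction. The median log2 fold change of the 8 at 6, 12, 18 and 24 h was 0.04, -0.24, -0.48 and 0.02, beside medians of 0.01, 0.02, 0.00 and 0.00 over all tested genes. With embryo sex as a term, the 5 members that passed at 12 h still passed. At 18 h the count dropped to 2, *Msx1* and *Id2*, without DMSO replicate 1, 2 or 3. *Id2* joined *Msx1* beyond 1 at 18 h without DMSO replicate 2 or 3 or C59 replicate 1 or 2 (log2 fold change -1.0, -1.02, -1.02 and -1.09).

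The C59 effect on each member was also compared between adjacent times, which tests a change within a gene and no difference between genes. From 6 to 12 h the effect on *Msx1* deepened by -0.96 on the log2 scale (SE 0.13, adjusted p = 8.35e-05) and that on *Id1* by -0.54 (SE 0.08, adjusted p = 0.000326), where 11.5% of all genes passed in that direction. From 12 to 18 h *Msx1* came back by 1.12 (SE 0.17, adjusted p = 0.00168), where 4.94% of all genes passed upward, while *Id3* moved down by -0.41 (SE 0.10, adjusted p = 0.0264), where 3.55% passed downward. The change of *Id3* did not pass without any one of DMSO 12 h replicates 1 and 3, C59 12 h replicates 1, 2 and 3 and DMSO 18 h replicates 1 and 2 (adjusted p from 0.0523 to 0.081). Without C59 18 h replicate 3, *Id1* (-0.43, adjusted p = 0.00515), *Id2* (-0.39, adjusted p = 0.0449) and *Id4* (-0.76, adjusted p = 0.0339) moved down as well. Without C59 18 h replicate 2, *Id2* (-0.66, adjusted p = 0.0332) and *Id4* (-1.33, adjusted p = 0.0164) did so. The controls moved too. From 12 to 18 h the DMSO level rose in edgeR for *Id1* (log2 change 0.41, adjusted p = 0.00044), *Id3* (0.30, adjusted p = 0.000897) and *Id2* (0.25, adjusted p = 0.02). For *Id4* the rise of 0.36 did not pass (adjusted p = 0.122). The C59 mean in CPM went from 74.7 to 86.7 for *Id1*, from 173 to 157 for *Id3* and from 83.5 to 66.9 for *Id2*.

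From 18 to 24 h the C59 effect moved up in 5 of the 8 members, where 3.53% of all genes passed in that direction. The changes were 1.66 for *Msx1* (SE 0.12, adjusted p = 2.79e-05), 0.96 for *Id2* (SE 0.21, adjusted p = 0.0144), 0.81 for *Id1* (SE 0.20, adjusted p = 0.0241), 0.55 for *Msx2* (SE 0.12, adjusted p = 0.0144) and 0.49 for *Id3* (SE 0.11, adjusted p = 0.0154). The change of *Id1* did not pass without DMSO 18 h replicate 1, DMSO 24 h replicate 1, 2 or 3, or C59 24 h replicate 2 (adjusted p from 0.0519 to 0.0675). Neither *Smad6* (-0.00) nor *Smad7* (0.06) passed in this step. *Axin2* CPM had already returned to 88.6% of DMSO at 18 h, when *Msx1* stood at 26.6%, *Id2* at 50.3%, *Id1* at 61.4% and *Msx2* at 65.1% of their DMSO means.

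Other genes of the BMP pathway moved in both directions, and their counts are to be read beside the shares over all genes, 11.4% lower and 8.2% higher at 6 h and 25.5% lower and 22% higher at 12 h. Of 8 ligand genes, 2 passed lower and 2 higher at 6 h, and 3 lower and 2 higher at 12 h. *Bmp4*, the main mesenchymal ligand, fell with a log2 fold change of -1.03 at 6 h and -1.25 at 12 h, whereas *Bmp3* (0.75 at 6 h) and *Gdf5* (1.26 at 12 h), a gene of joint progenitors, rose. Of 11 antagonist genes found among 12 listed, 4 passed lower and 1 higher at 6 h and 2 lower and 3 higher at 12 h. *Grem1*, the antagonist that keeps BMP activity low in the distal bud, fell with log2 fold changes of -2.94 at 6 h and -1.92 at 12 h. *Sost* (-1.58) and *Fst* (-1.18) fell at 6 h and *Chrd* (0.66) rose, while *Nog* (1.62) and *Bmper* (1.40) rose at 12 h. *Bmp4*, *Grem1*, *Sost*, *Twist1* and *Twist2* are in the study's panel too, chosen on these samples.

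On the receiving side, 0 of 7 receptor genes passed at 6 h in edgeR and 0 had an unadjusted p below 0.05, where the log2 fold changes ran from -0.04 (*Acvr2b*) to 0.20 (*Bmpr2*) and the lowest adjusted p was 0.156. At 12 h, where 47.5% of all genes passed, 1 passed lower (*Acvr2b*, -0.17) and 4 higher, led by *Bmpr1b* (1.23), a receptor of cartilage condensations. Of 13 SMADs and regulators, 2 passed lower and 2 higher at 6 h, with *Bambi* (-0.60) lowest and *Skil* (0.28) highest. At 12 h 1 passed lower and 2 higher, with *Bambi* (-0.82), a pseudoreceptor that is itself induced by BMP, lowest again and *Tob1* (0.51) highest. Among 16 other BMP-responsive genes, which include *Bambi*, 3 passed lower and 3 higher at 6 h, from *Dlx5* (-0.64) to *Gata2* (0.55). At 12 h 5 passed lower and 3 higher, from *Bambi* to *Dlx3* (0.47), a share close to that over all genes. At 18 h, where 3.62% of all genes passed lower, 5 passed, all of them lower, with *Dlx2* (-0.89) lowest, and the median of this list was -0.16. None of these 16 had a log2 fold change beyond 1 with an adjusted p below 0.05 at these times.

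The helix-loop-helix genes whose proteins pair with or are held by ID proteins passed mostly lower at 12 h. Of 8, 4 passed lower and 1 higher at 6 h, where 19.6% of all genes passed, and 7 lower and 1 higher at 12 h, where 47.5% did, with a median log2 fold change of -0.45 at 12 h. *Twist1*, a regulator of limb mesenchyme, fell with log2 fold changes of -1.39 at 6 h and -1.19 at 12 h, and *Twist2* with -1.37 and -1.13. The E proteins *Tcf12* (-0.50), *Tcf4* (-0.41) and *Tcf3* (-0.26) were lower at 12 h. The muscle lineage genes of the list moved in opposite directions. *Myod1* was higher, with 1.46 at 6 h and 0.55 at 12 h, and then lower at 24 h (-0.38, adjusted p = 0.0179). *Myf5* was lower, with -1.0 at 12 h (adjusted p = 0.000105) and -1.13 at 18 h (adjusted p = 0.00229).

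**Figure D4:**
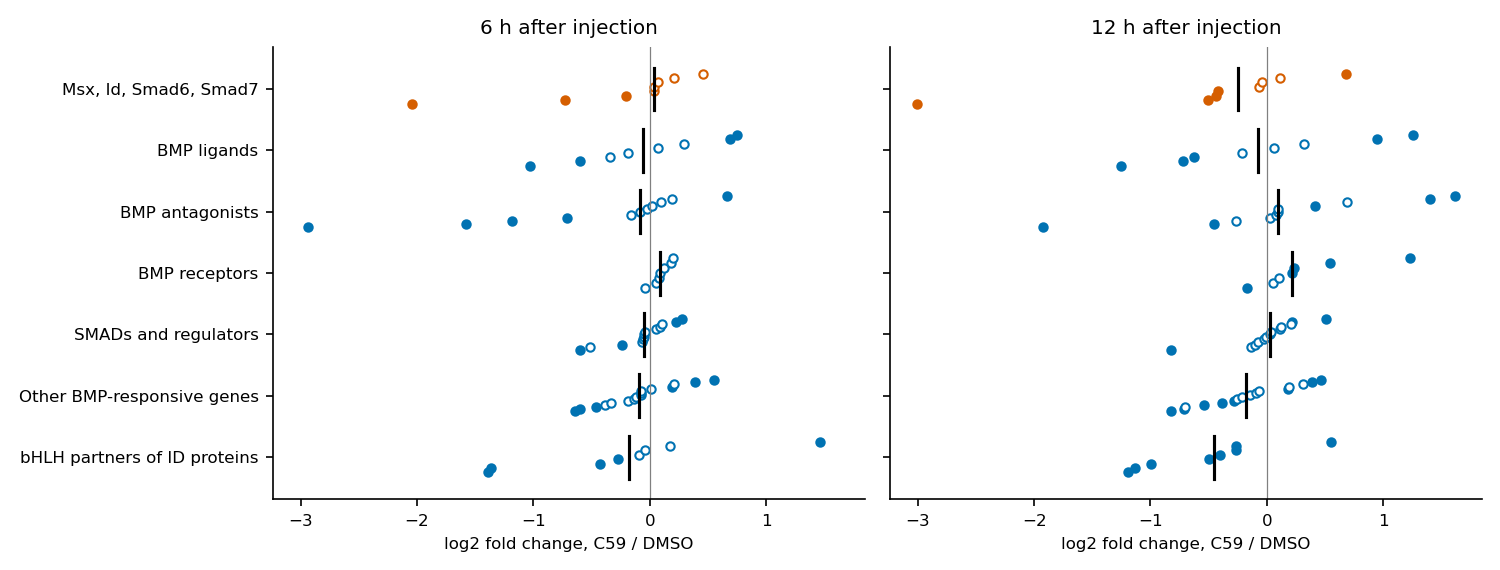
Log2 fold change of C59 over DMSO (x axis) at 6 h (left) and 12 h (right) for each gene of the 8 described here (orange) and of 6 lists (blue), filled where the adjusted p was below 0.05, with the median of each list as a black bar. *Msx1* lies at the lower end together with *Grem1*, and the list medians lie between -0.45 and 0.22.

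Markers of cell types moved with treatment as well, and their part in the values of the 8 genes was not tested. The summed FPKM of 7 limb mesenchyme genes, among them *Twist1*, in C59 was 75.2% of DMSO at 6 h and 75.1% at 12 h, without overlap (DMSO 541 to 556 and C59 395 to 423 FPKM at 12 h), and 95.1% at 18 h. *Twist1* weighs most in this sum, with a median of 168 FPKM over all libraries, followed by *Prrx1* with 112. *Twist1* itself fell with log2 fold changes of -1.39 at 6 h and -1.19 at 12 h. The sum therefore does not show a fall of each listed gene. The sum of 5 apical ridge genes was 42.6% at 6 h, 41.1% at 12 h and 68.8% at 18 h, also without overlap (DMSO 23.0 to 26.6 and C59 8.54 to 12.9 FPKM at 12 h), and *Fgf4* of this list was at 0 in at least 1 library. *Fgf8* (median 8.38 FPKM over all libraries) and *Dlx5* (6.36) weigh most in the ridge sum. *Dlx5* itself passed lower in edgeR at 6 h (log2 fold change -0.64) but not at 12 h (-0.14, adjusted p = 0.603). The ridge sum is thus no measure of each listed gene or of the amount of ridge. *Msx1*, *Msx2* and Id genes are active in mesenchyme and ridge. The sum of 8 ectoderm genes was 159% of DMSO at 12 h, 135% at 18 h and 122% at 24 h without overlap (DMSO 97.5 to 111 and C59 149 to 202 FPKM at 12 h). Vessel cells are a known source of *Id1*, *Id3*, *Smad6* and *Smad7*. The sum of 8 endothelial genes was 127% of DMSO at 12 h (DMSO 87.5 to 96.5 and C59 110 to 126 FPKM) and overlapped between treatments at the other 4 times. The sum of 6 muscle progenitor genes was 155% and 159% of DMSO at 6 and 12 h. It overlapped between treatments at 18 h and was lower in C59 without overlap at 24 h (89.0%). *Myog* (median 24.9 FPKM over all libraries) weighs most in this sum, followed by *Myod1*. At 12 h *Myf5* of this list passed lower in edgeR (log2 fold change -0.996) and *Myod1* passed higher (0.55). The muscle sum is thus no measure of each listed gene or of the amount of muscle progenitors. Macrophage genes (6) stood at 172% at 12 h, and neural crest and Schwann cell genes (4 of 5 found) at 223%. The sum of 8 erythroid genes overlapped between treatments at all times.

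Genes with the most similar pattern were looked up over the 10 group means of log2 CPM among 12541 genes with a mean of at least 1 CPM. For *Msx1* these were *Bambi* (Pearson r = 0.985), *Nop58* (0.978) and *Adss* (0.976). For *Id1* they were *Atoh8* (0.957), another BMP-responsive gene, *Rps6kb1* (0.954) and *Inpp5b* (0.917). For *Msx2* they were *Gm13889*, *Sfr1* and *Hdac2* (0.924 to 0.970), for *Id2* *Ufd1*, *Mterf3* and *Smc6* (0.972 to 0.979), for *Id3* *Ugp2* (0.978) and *Tmem65* (0.962) and for *Id4* *Synpr*, *Klf6* and *Ugdh* (0.972 to 0.979). For *Smad6* they were *Fbxl17*, *Ttyh3* and *Xbp1* (0.877 to 0.904) and for *Smad7* *Rap2b*, *Cog6* and *Gmcl1* (0.926 to 0.935). These likenesses describe 10 points that share libraries and developmental time, and no member was among the 3 genes most like another member.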

How the data were processed

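PolyA RNA of 30 libraries was measured, in 10 groups of 3 taken from the sample labels. The authors trimmed reads with cutadapt 1.16, mapped them with STAR 2.7.0e to mm10 with a custom annotation and deposited raw counts per gene, written while mapping, without normalization. The strand of counting is not given in the sources used here. The authors computed the deposited FPKM values with Cufflinks 2.2.1 (unstranded, with multi-read and bias correction, without effective length correction), and replicates were not pooled. The submitters' processing notes also list deepTools 3.5.5. Versions are from those notes.

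Counts of protein-coding autosomal genes were tested with edgeR 4.0.16 in R 4.3.3 by its quasi-likelihood test (two-sided), after TMM scaling and the filter filterByExpr (count of 10, total of 15), with Benjamini-Hochberg adjustment over all tested genes. Each time was fitted on its own 6 libraries, changes of the effect on 12 libraries of adjacent times, and development on the 15 DMSO libraries. A gene passed at an adjusted p below 0.05, and the study's log2 fold change threshold of 1 was applied in addition where stated. The standard error was the log2 fold change divided by the square root of F. Per the study's methods each replicate came from 1 pair of forelimb buds, and the p-values measure the spread between such samples. Fold changes of the main tests rest on counts. FPKM served for comparing levels between genes, for ratios, sums and shares within families, for marker sums and for the limma alternatives. FPKM carries no TMM factors, so treatment differences can vary in size between the scales. *Id1* in C59 at 12 h, for example, was at 70.6% of DMSO in CPM and 75.0% in FPKM. The fits were tested on simulated data with known changes.

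The members and the gene lists were chosen with earlier results of these data known. Named genes were the 8 members, *Axin2*, of each list the genes with the lowest and highest log2 fold change at 6 and 12 h and all genes past both thresholds then, and the 3 genes most like each member, of which 1 is not reported here. *Tcf12*, *Tcf4*, *Tcf3*, *Myf5*, *Dlx2*, *Fgf4*, *Fgf8* and *Myog* were named after their values were seen. Alternatives were DESeq2 1.42.0, other size factors and filters, all genes of the table, a spread shared by all 30 libraries, limma 3.58.1 on log2(FPKM + 1) and log2(FPKM + 0.1), the replicate number as a block, leaving out each library and, added after seeing the data, embryo sex as a term at 12 and 18 h.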

Additional observations from a re-analysis of the deposited data

Results flagged for a closer look

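The C59 effect on a member differed between adjacent times, by an interaction test in edgeR, in 9 cases, which are listed here as values. Between 6 and 12 h these were *Id1* (-0.54 on the log2 scale) and *Msx1* (-0.96). Between 12 and 18 h they were *Id3* (-0.41) and *Msx1* (1.12), which moved in opposite directions. Between 18 and 24 h they were *Id3* (0.49), *Id2* (0.96), *Msx2* (0.55), *Id1* (0.81) and *Msx1* (1.66), all upward.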

How the results depend on the processing

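Of 656 values of single members against DMSO under alternatives, 614 kept their direction and side of the threshold, 29 lost and 13 gained significance, and 0 reversed among values that passed. Of 728 values for changes of the effect and for development, 696 were kept, 12 lost and 20 gained significance and 0 reversed. The numbers of members past both thresholds at 1, 6, 12 and 24 h and of those passing at 1, 6 and 12 h stayed within 1.5 times the given number under every alternative, and so did the numbers passing for the change from 6 to 12 h, the change from 18 to 24 h and development. The numbers past both thresholds for these changes did not: from 6 to 12 h it was 0, and 1 (*Msx1*) without DMSO 12 h replicate 2 or C59 12 h replicate 3. From 18 to 24 h it was 1 (*Msx1*), and 2 without DMSO 18 h replicate 3, C59 18 h replicate 1 or 2 or C59 24 h replicate 1 (with *Id2*) or without C59 18 h replicate 3 (with *Id1*). From 12 to 18 h it was 1 (*Msx1*), 0 in limma on log2(FPKM + 1), and 2 (with *Id4*) in DESeq2, in limma on log2(FPKM + 0.1), with all 30 libraries, with the replicate block or without C59 18 h replicate 2.

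At 18 h 2 members passed with embryo sex as a term, in place of 4, and from 2 to 5 when each library was left out in turn, where from 1 to 2 were past both thresholds. At 24 h 2 members passed with DESeq2 (*Msx1* and *Id3*) and 0 in limma on log2(FPKM + 1) or log2(FPKM + 0.1), with all 30 libraries sharing the spread or with the replicate block (adjusted p of *Msx1* from 0.0655 to 0.119), and from 0 to 1 when each library was left out. For the change from 12 to 18 h, 4 members passed with DESeq2, with all 30 libraries and with the replicate block (*Msx1*, *Id2*, *Id3* and *Id4*), in place of 2, and from 1 to 5 when each library was left out. The cause of these differences was not tested. Leaving out a library leaves 2 in its group.

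The replicate numbers did not pair the libraries: over 15 pairs of equal number the correlation of deviations ran from -0.29 to 0.17 and 3 pairs exceeded 0.1. With the replicate block *Id1* at 18 h also lost its call (adjusted p = 0.0552) and the change of *Id2* from 6 to 12 h gained one (adjusted p = 0.0479). *Id4*, with 69 to 399 counts per library, is the member most limited by depth.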
